A study of Arabidopsis thaliana with 16 samples.

Results

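The phosphoethanolamine N-methyltransferase genes of Arabidopsis thaliana are XPL1 (AT3G18000, also called NMT1), NMT2 (AT1G48600) and NMT3 (AT1G73600). They were taken by gene identifier, 3 genes of the 32833 in the table, and were selected on the low XPL1 level in libraries labelled nup82. All 3 were among the 22427 genes with enough counts to be tested. The samples were whole seedlings, 2 libraries for each of 8 genotypes: nup50c nup82 nup136, nup82 nup136, nup50c nup136, nup50c nup82, nup136, nup82, nup50c and wild type (WT, Col-0). Every group was 9 days old and was grown without treatment on medium with 1% sucrose, and about 50 mg of seedlings gave the RNA of a sample. The labels name the mutated genes but no alleles. Whether the pair of libraries per genotype stands for separate cultures is not stated, and p-values then measure only the spread between these samples, which may be technical. NUP50C, NUP82 and NUP136 are proteins of the nuclear basket, the filaments on the inner side of the nuclear pore.

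These enzymes transfer methyl groups from S-adenosylmethionine to phosphoethanolamine, step by step, until phosphocholine is formed. Phosphocholine is the head group of phosphatidylcholine, the main phospholipid of most plant membranes outside the plastid, and in plants this route is the main source of choline. XPL1 and NMT3 accept phosphoethanolamine itself, whereas NMT2 is known to act on the partly methylated intermediates. XPL1 is best known for its role in roots, where its loss shortens the root and kills epidermal cells, and its messenger RNA carries an upstream open reading frame through which phosphocholine lowers its translation.

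XPL1 lies at chr3:6154363-6157552 and has 1 annotated transcript with 12 exons. NMT2 lies at chr1:17965871-17969354 with 2 transcripts and NMT3 at chr1:27669152-27673572 with 2 transcripts, all on the forward strand of TAIR10, the build of the files. Each gene has an annotated upstream open reading frame of 78 bases before its main coding sequence, which is 1476 bases long in XPL1 and NMT2 and 1515 in NMT3. Over aligned positions, the coding sequences of XPL1 and NMT2 were 85.42% identical, those of XPL1 and NMT3 77.1% and those of NMT2 and NMT3 76.81%. Because the genes are this alike, the longest runs that XPL1 shares letter for letter with each of the others in their transcripts are given below, as read from the RefSeq assembly TAIR10.1. They are in lower case, 5′ to 3′, and were shorter than the reads of 150 bases.

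XPL1 and NMT2: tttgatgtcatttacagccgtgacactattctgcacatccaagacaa
XPL1 and NMT3: tacgctatgagcgtgtctttgg

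The first run is 47 bases long and starts at base 1045 of the XPL1 coding sequence, and the second is 22 bases long and starts at base 755. NMT2 and NMT3 share at most 21 bases. How the submitters' counting treated reads with several alignments is not given in the sources used here.

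XPL1 and NMT3 were the members whose transcript levels moved apart in the single mutants, so the 250 bases before their annotated starts are shown, on the forward strand of TAIR10.1. Capitals mark TATAAA, the core of the TATA box, found on either strand.

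XPL1, chr3:6154113-6154362: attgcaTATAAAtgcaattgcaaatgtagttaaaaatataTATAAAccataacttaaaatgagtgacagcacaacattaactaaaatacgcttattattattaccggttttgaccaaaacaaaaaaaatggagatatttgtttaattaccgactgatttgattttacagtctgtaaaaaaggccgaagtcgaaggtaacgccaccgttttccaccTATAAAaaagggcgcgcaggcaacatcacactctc
NMT3, chr1:27668902-27669151: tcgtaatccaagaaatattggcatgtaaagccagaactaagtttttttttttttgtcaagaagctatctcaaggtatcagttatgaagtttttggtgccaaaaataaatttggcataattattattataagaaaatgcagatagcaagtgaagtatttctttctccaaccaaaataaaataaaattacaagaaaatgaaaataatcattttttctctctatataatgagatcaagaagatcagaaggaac

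The XPL1 window holds TATAAA 3 times, at 244, 210 and 35 bases before the start, and the windows of NMT3 and NMT2 do not hold it. Of 27443 such windows of protein-coding genes, 47.3% hold TATAAA. The P1BS motif of phosphate-starvation genes (GNATATNC, either strand) is in 5.46% of them and the G-box (CACGTG) in 6.49%, and neither set of letters is in the window of any of the 3 genes. NMT3 has a shorter annotated transcript that starts at base 27670626, whose own upstream window was not searched.

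Depth ranged from 37923632 to 46194172 gene counts per library. The labels were checked on the mutated genes, in CPM (counts scaled to a common library size by TMM). NUP50C had 8.77 to 15.0 CPM in the 8 libraries with the nup50c label, against 38 to 47.2 CPM in the other 8, and NUP136 had 18.6 to 33.9 CPM with the nup136 label, against 42.0 to 53.4 CPM without it. NUP82 did not separate, with 21.4 to 37.5 CPM under the nup82 label against 28.9 to 35.0 CPM without it, and was low only in the libraries labelled nup82 (66.9% of WT). AT2G41980, a gene near 0 in the libraries labelled nup82 and nup50c nup82 (0.451 to 0.741 CPM), stood at 10.5 to 23.8 CPM in those labelled nup82 nup136 and nup50c nup82 nup136 and at 18.5 and 19.2 CPM in WT. Directions that involve the nup82 label therefore rest on the labels. Of marker genes, 3 seed genes summed to 22.6 and 27.5 CPM in the libraries labelled nup50c nup82 nup136 and to 28.2 and 63.8 CPM in those labelled nup82 nup136, against 1.22 CPM or less in every other library. The pollen gene VGD1 was at 0 in all libraries, and all 10 root and all 6 green shoot markers were detected in every library.

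XPL1, the gene whose fall chose the family, was highest in WT. In the single mutants it had 87.9 and 82.8 CPM in nup136, 119 and 123 CPM in the libraries labelled nup82, and 138 and 125 CPM in nup50c, against 256 and 289.6 CPM in WT. The libraries labelled nup50c nup82 had 124 and 107 CPM. It had 168 and 159 CPM in the libraries labelled nup50c nup82 nup136, 151 and 165 CPM in those labelled nup82 nup136, and 151 and 164 CPM in nup50c nup136. All 14 mutant libraries lay below both WT libraries, an order that 1.62% of the genes tested had. Since 8 of these libraries carry the label that chose XPL1, nothing is read from that share. XPL1 was lowest in nup136, not in the genotypes with several mutations: nup136 held 31.3% of the WT level, the libraries labelled nup50c nup82 nup136 60.0%. In order of level, the 3 genotypes that combine nup136 with another label overlapped one another, those labelled nup82 and nup50c nup82 overlapped, and WT, nup50c and nup136 overlapped with no neighbour. Since each library is a bulk of whole seedlings, fewer cells that express a gene and less of its RNA per cell cannot be told apart, here and below.

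NMT3, which like XPL1 can start from phosphoethanolamine, was above WT in the single mutants, where XPL1 was below it. It had 241 and 247 CPM in nup136, 375 and 362 CPM in the libraries labelled nup82, and 326 and 325 CPM in nup50c, against 96.4 and 99.9 CPM in WT. The libraries labelled nup50c nup82 had 241 and 254 CPM. None of these 8 libraries reached down to WT, and their means stood at 2.48-fold, 3.76-fold, 3.32-fold and 2.52-fold of WT in the order given. With nup136 and a second label the level was far nearer to WT: 134 and 161 CPM in nup50c nup136, and 114 and 132 CPM in the libraries labelled nup82 nup136. It was 79.3 and 77.6 CPM in the libraries labelled nup50c nup82 nup136, below both WT libraries, at 79.9% of the WT mean. NMT3 was thus above both WT libraries in 12 of 14 mutant libraries and below both in the other 2. Of neighbours in the order of level, those labelled nup50c nup82 and nup136 overlapped, and all others were apart.

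NMT2, the enzyme of the later methylation steps, stood close to WT in the single mutants. It had 286 and 283 CPM in nup136, 278 and 269 CPM in the libraries labelled nup82, 275 and 278 CPM in nup50c and 271 and 276 CPM in those labelled nup50c nup82, against 289 and 286 CPM in WT. These 10 libraries lay within a few percent of one another, from 95.1% to 100% of WT by genotype mean. Lower levels were seen only where nup136 met another label, with 149.6 and 148 CPM in the libraries labelled nup50c nup82 nup136, 212 and 228 CPM in those labelled nup82 nup136 and 208 and 209 CPM in nup50c nup136. The libraries with all 3 labels held 51.7% of the WT level and did not overlap with any other genotype. For NMT2, too, all 14 mutant libraries lay below both WT libraries, the nearest nup136 and WT libraries both at 286 CPM to 3 digits.

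**Figure D1:**
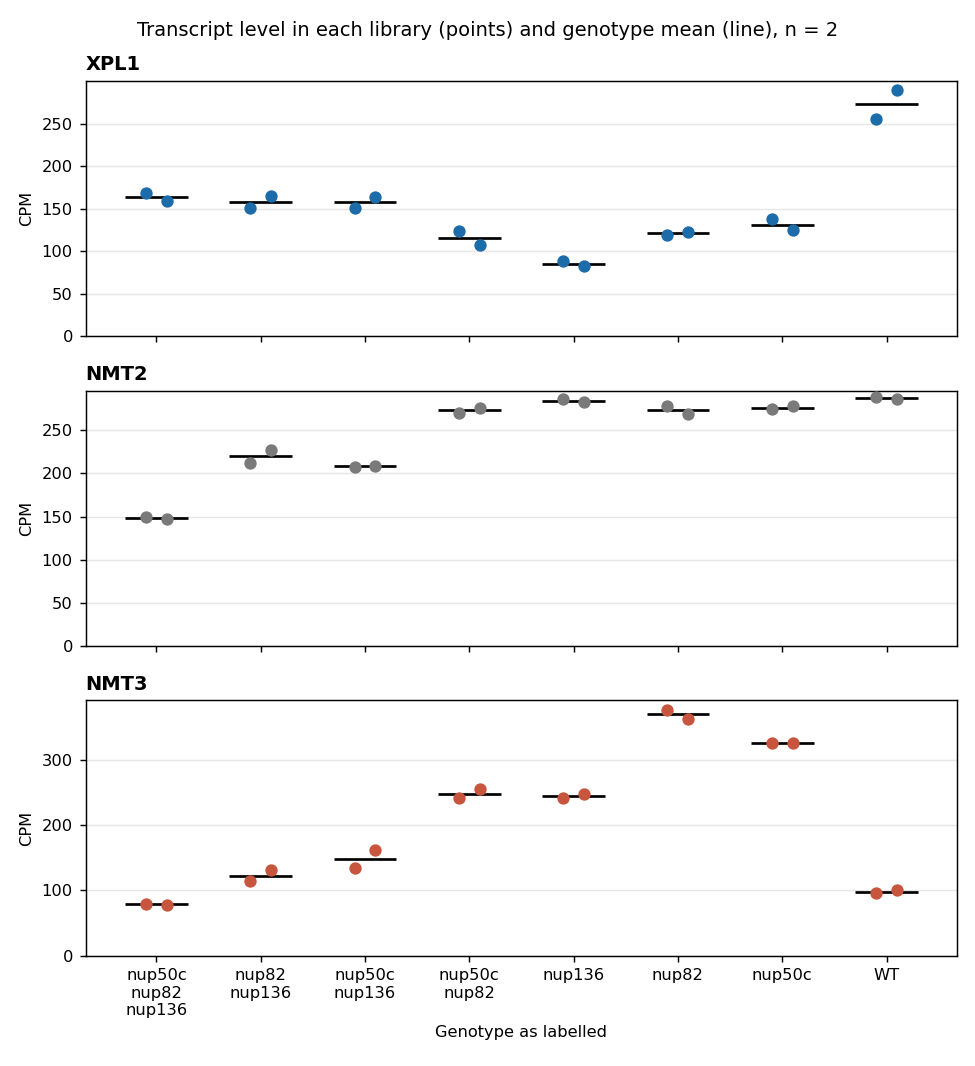
Transcript level in CPM (vertical axes, from 0) of XPL1, NMT2 and NMT3 in each of the 16 libraries, by genotype as labelled (horizontal axis); points are libraries and lines are means of 2. XPL1 was highest in WT at 256 and 289.6 CPM, NMT3 was highest in the libraries labelled nup82 at 375 and 362 CPM, and NMT2 was at or below 228 CPM only in the 3 genotypes that combine nup136 with another label.

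Levels of different genes can be compared only per length, for which the FPKM deposited by the authors (fragments scaled by gene length and library size) were used. In WT, NMT2 and XPL1 stood at 144 ± 0.855 and 142 ± 12.6 FPKM and NMT3 at 49.5 ± 1.32 FPKM (mean ± SD, n = 2, as for all means here). The leading gene per length was NMT3 in nup50c (164 ± 0.140 FPKM) and in the libraries labelled nup82 (186 ± 5.34 FPKM), and NMT2 in nup136 (142 ± 0.632 FPKM). Where all 3 labels met it was XPL1, at 85.3 ± 3.39 FPKM, with NMT2 at 74.4 ± 0.770 FPKM and NMT3 at 39.7 ± 0.634 FPKM.

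Because XPL1 and NMT3 differed from WT in opposite directions in the single mutants, the sum of the 3 genes varied less than either. The sum was 310 and 310.1 FPKM in nup136, 392 and 381 FPKM in the libraries labelled nup82 and 374 and 369 FPKM in nup50c, against 326 and 344 FPKM in WT. These means are 92.5%, 115% and 111% of WT. The libraries labelled nup50c nup82 had 319 and 320.1 FPKM, or 95.4% of WT. The sum was lower where nup136 was combined with another label, with 203 and 196 FPKM in the libraries labelled nup50c nup82 nup136, 242 and 267 FPKM in those labelled nup82 nup136, and 251 and 271 FPKM in nup50c nup136. No library of these 3 genotypes reached the lowest WT library, and neither did those of nup136 or those labelled nup50c nup82. The libraries labelled nup50c nup82 nup136 held 59.5% of the WT sum. The sums are descriptions without a test.

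The make-up of the sum differed more than its size. NMT3 made up 39.7 ± 0.806% of it in nup136, 48.2 ± 0.445% in the libraries labelled nup82 and 44.3 ± 0.420% in nup50c, against 14.8 ± 0.181% in WT. XPL1 made up 14.3 ± 0.583% in nup136, 16.3 ± 0.675% in the libraries labelled nup82 and 18.4 ± 1.1% in nup50c, against 42.3 ± 2.1% in WT. The shares were 42.8 ± 0.671% for XPL1 and 19.9 ± 0.160% for NMT3 in the libraries labelled nup50c nup82 nup136, near those of WT although the sum was lower. NMT2 stayed between 35.5% and 45.9% in all 8 genotypes. The ratio of NMT3 to XPL1 was 0.457 and 0.473 in the libraries labelled nup50c nup82 nup136 and 2.65 and 2.89 in nup136, against 0.365 and 0.335 in WT.

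**Figure D2:**
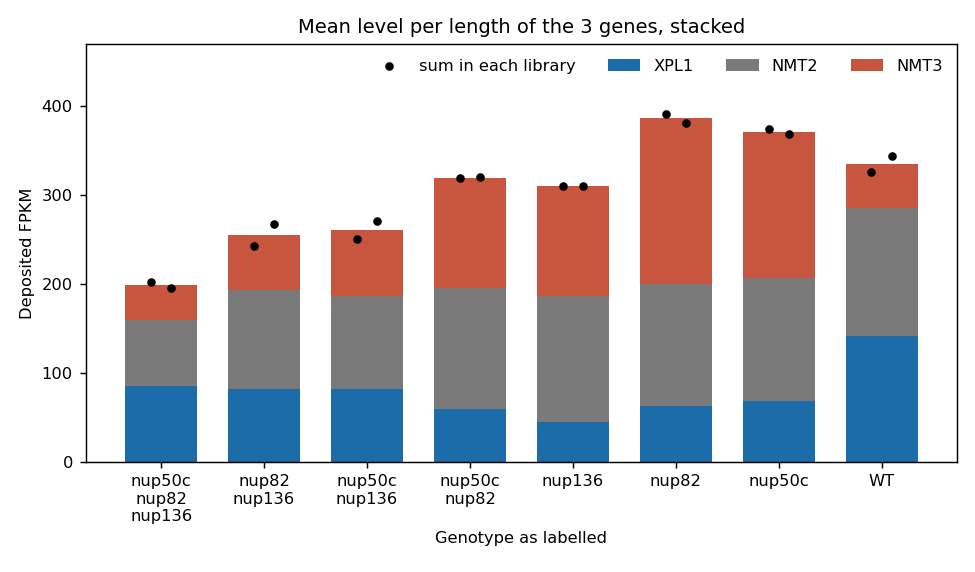
Mean level per length in FPKM as deposited (vertical axis, from 0) of the 3 genes, stacked, by genotype as labelled (horizontal axis); each bar segment is a mean of 2 libraries and the dots are the sums in single libraries. The NMT3 segment makes up 48.2% of the bar in the libraries labelled nup82 and 14.8% in WT, and the whole bar is shortest in the libraries labelled nup50c nup82 nup136, at 199 FPKM.

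Differences were tested in 1 edgeR quasi-likelihood fit of all libraries, with p-values adjusted over all genes tested and a threshold of 0.05, and only between genotypes that both carry, or both lack, the nup82 label, since that label chose the members. The comparisons with WT still share the WT libraries with the values that chose XPL1. Between genotypes that both carry the nup82 label, XPL1 is described with no p, because its low level in such libraries chose the family. The same holds for averages that such libraries enter. In nup136 against WT, XPL1 fell 3.19-fold (log2 fold change -1.68 ± 0.088 SE, adjusted p = 9.86e-13) and NMT3 rose 2.48-fold (1.31 ± 0.084, adjusted p = 5.33e-11). NMT2 was at a log2 fold change of -0.01 ± 0.067 and did not pass (adjusted p = 0.922). Of all genes tested, 14.4% passed, a share that XPL1 is not set against, because WT entered its choice. The 10 root markers summed to 1963 and 2043 CPM in nup136, against 2992 and 3056 CPM in WT, and without PYK10, which makes up most of that sum, to 86.6 and 89.3 CPM, against 114.1 and 114.5 CPM. The part of root RNA in the fall of XPL1 was not tested.

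The same mutation went with other directions on other backgrounds, as the plot of changes by background shows. In nup50c nup136 against nup50c, NMT3 fell 2.20-fold (-1.14 ± 0.083, adjusted p = 2e-10), NMT2 fell 1.33-fold (-0.41 ± 0.068, adjusted p = 6.17e-05) and XPL1 rose 1.20-fold (0.26 ± 0.085, adjusted p = 0.0233), where 27% of all genes passed. The rise of XPL1 depended on single libraries: without nup50c replicate 2 it was 0.19 (adjusted p = 0.215) and without nup50c nup136 replicate 2 it was 0.20 (adjusted p = 0.202). Root markers without PYK10 summed to 69.2 and 81.9 CPM in nup50c nup136, against 99.5 and 111 CPM in nup50c, and green shoot markers to 14996 and 16566 CPM, against 18009 and 18058 CPM. In the libraries labelled nup82 nup136 against those labelled nup82, NMT3 fell 3.01-fold (-1.59 ± 0.085, adjusted p = 9.61e-13) and NMT2 fell 1.24-fold (-0.32 ± 0.068, adjusted p = 0.00121), where 21.5% passed. XPL1 was at a log2 fold change of 0.39 ± 0.086. In the libraries labelled nup50c nup82 nup136 against those labelled nup50c nup82, NMT3 fell 3.15-fold (-1.66 ± 0.085, adjusted p = 3.95e-14) and NMT2 fell 1.84-fold (-0.88 ± 0.068, adjusted p = 8.98e-11), where 46.3% passed. XPL1 was at 0.50 ± 0.086. On these 3 backgrounds the XPL1 estimate was above 0 and that of NMT3 below 0, and on the WT background the reverse. Green shoot markers summed to 13417 and 13798 CPM in the libraries labelled nup50c nup82 nup136, against 18349 and 20255 CPM in those labelled nup50c nup82, and the seed markers above were present only on 1 side of both comparisons with the nup82 label. The part of these markers in the results was not tested.

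Adding nup50c gave a like pattern for NMT3, which rose on WT and fell on the other backgrounds. XPL1 fell on WT and rose on nup136, but lay within its SE of 0 on both backgrounds with the nup82 label. In nup50c against WT, XPL1 fell 2.08-fold (-1.05 ± 0.086, adjusted p = 3.93e-08), NMT3 rose 3.32-fold (1.73 ± 0.085, adjusted p = 6.82e-13) and NMT2 did not pass (-0.06 ± 0.067, adjusted p = 0.859). As above, XPL1 is not set against the share of all genes that passed, which was 1.73%, or 389. That number depended on single libraries, at 95 without nup50c replicate 2, 150 without WT replicate 1 and 175 without WT replicate 2. All 10 root markers summed to 3122 and 3539 CPM in nup50c, against 2992 and 3056 CPM in WT, and without PYK10 to 99.5 and 111 CPM, against 114.1 and 114.5 CPM. In nup50c nup136 against nup136, XPL1 rose 1.85-fold (0.88 ± 0.086, adjusted p = 1.21e-07), NMT2 fell 1.37-fold (-0.45 ± 0.068, adjusted p = 6.13e-05) and NMT3 fell 1.65-fold (-0.72 ± 0.083, adjusted p = 1.71e-06), where 8.9% passed. Within the nup82 label the 2 comparisons differed in NMT2. In the libraries labelled nup50c nup82 against nup82, NMT3 fell 1.49-fold (-0.58 ± 0.083, adjusted p = 0.00027), while NMT2 (-0.00205 ± 0.067, adjusted p = 0.993) did not pass, where 3.4% of all genes, or 762, did. That number was 136 and 295 without a library labelled nup82 and 160 and 349 without one labelled nup50c nup82. XPL1 was at -0.06 ± 0.086. In the libraries labelled nup50c nup82 nup136 against nup82 nup136, NMT3 fell 1.56-fold (-0.64 ± 0.084, adjusted p = 1.95e-06) and NMT2 fell 1.48-fold (-0.57 ± 0.068, adjusted p = 5.51e-07), where 29.8% passed, and XPL1 was at 0.05 ± 0.085.

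**Figure D3:**
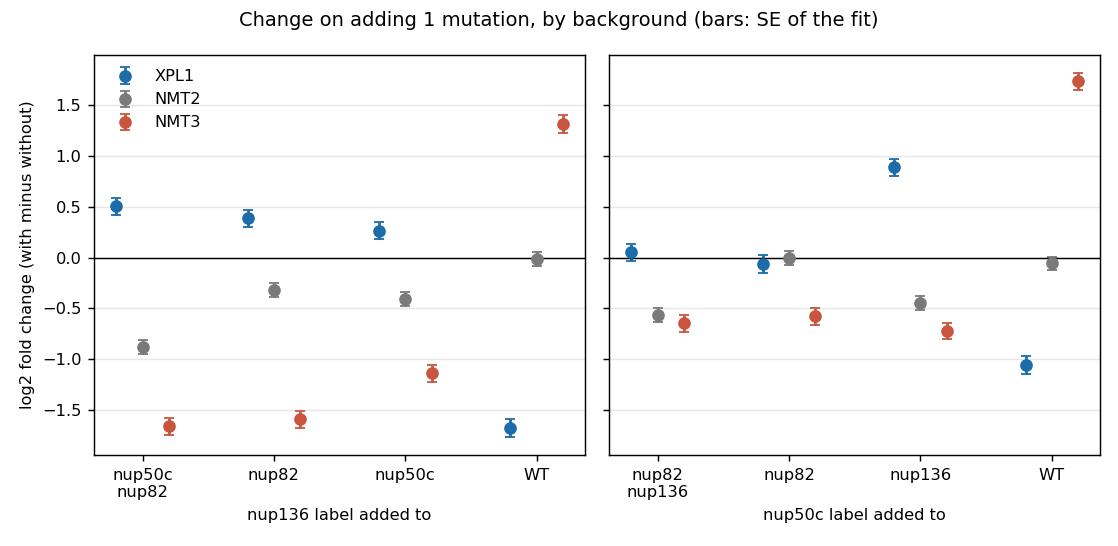
Log2 fold change (vertical axis) of XPL1, NMT2 and NMT3 on adding the nup136 label (left panel) or the nup50c label (right panel) to each of 4 backgrounds (horizontal axes); points are estimates from the fit of all 16 libraries and bars are their SE. On the WT background NMT3 lies at 1.31 and 1.73 and XPL1 at -1.68 and -1.05, whereas on the other backgrounds NMT3 lies between -1.66 and -0.58 and XPL1 between -0.06 and 0.88.

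Both mutations together, nup50c nup136 against WT, left XPL1 1.73-fold lower (-0.79 ± 0.085, adjusted p = 1.5e-07), NMT2 1.38-fold lower (-0.46 ± 0.068, adjusted p = 1.24e-05) and NMT3 1.51-fold higher (0.59 ± 0.084, adjusted p = 8.03e-06). Of all genes, 24.7% passed, and XPL1 is again not set against that share. The same pair within the nup82 label, the libraries labelled nup50c nup82 nup136 against nup82, had NMT3 4.70-fold lower (-2.23 ± 0.087, adjusted p = 2.07e-16) and NMT2 1.84-fold lower (-0.88 ± 0.068, adjusted p = 8.37e-11), where 46.8% passed, with XPL1 at 0.44 ± 0.086.

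Whether the nup136 effect itself differed between backgrounds was tested as an interaction. The interactions with the nup82 label held fixed were added after values were seen. In the first below, WT enters the effect and also entered the choice of XPL1, so its p for XPL1 is not read as support. The effect in nup50c minus the effect in WT was 1.94 ± 0.12 log2 units for XPL1 (adjusted p = 1.11e-10), -2.45 ± 0.12 for NMT3 (adjusted p = 4.63e-13) and -0.39 ± 0.095 for NMT2 (adjusted p = 0.0125), and 5.17% of all genes passed. For NMT2 the call did not hold without WT replicate 2 (-0.39, adjusted p = 0.0595) or without nup50c replicate 2 (-0.38, adjusted p at the threshold and not under it). Within the nup82 label, the effect in nup50c nup82 minus the effect in nup82 passed for NMT2 (-0.56 ± 0.096, adjusted p = 0.000121) but not for NMT3 (-0.0673 ± 0.12, adjusted p = 0.738), and 21.8% of genes passed. For XPL1 it was 0.12 ± 0.12. Averaged over the nup82 label, the interaction was -0.48 ± 0.068 for NMT2 (adjusted p = 1.45e-05) and -1.26 ± 0.083 for NMT3 (adjusted p = 8.43e-11), where 17.4% passed. XPL1 was at 1.03 ± 0.086, as a description.

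Averages over all 4 backgrounds combine these opposite signs. With nup136, NMT3 was at -0.77 ± 0.042 log2 units on average (adjusted p = 5.59e-14) and NMT2 at -0.40 ± 0.034 (adjusted p = 2.26e-10). Both passed, as did 52.6% of all genes. XPL1 was at -0.13 ± 0.043, and at -0.10 without replicate 1 of the libraries labelled nup50c nup82. With nup50c, NMT2 was lower on average (-0.27 ± 0.034, adjusted p = 2.82e-06) and NMT3 (-0.05 ± 0.041, adjusted p = 0.427) did not pass, where 17.4% did. XPL1 was at -0.05 ± 0.043. With the 4 libraries labelled nup82 nup136 and nup50c nup82 nup136 omitted, the nup136 average over the backgrounds left was 0.098 for NMT3 (adjusted p = 0.19), -0.70 for XPL1 (adjusted p = 7.73e-09) and -0.20 for NMT2 (adjusted p = 0.0024), and the nup50c average of NMT2 was -0.17 (adjusted p = 0.018).

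The nup82 label chose the members, so its values are given as descriptions with no test. Added to WT, it went with a log2 fold change of -1.17 ± 0.086 for XPL1, -0.07 ± 0.067 for NMT2 and 1.91 ± 0.086 for NMT3. Added to nup50c, the values were -0.18 ± 0.086 for XPL1, -0.02 ± 0.067 for NMT2 and -0.40 ± 0.082 for NMT3. Added to nup136, they were 0.89 ± 0.087 for XPL1, -0.37 ± 0.068 for NMT2 and -0.99 ± 0.084 for NMT3, and added to nup50c nup136, 0.05 ± 0.085 for XPL1, -0.49 ± 0.068 for NMT2 and -0.91 ± 0.084 for NMT3. On the nup50c background the XPL1 value lay between -0.29 and -0.0817 with 1 library left out, these bounds coming from leaving out 1 or the other library labelled nup50c nup82, and it was -0.12 without nup50c replicate 1. XPL1 was not lower with the nup82 label on the 2 backgrounds with nup136, where AT2G41980 was also not near 0. A link between these observations was not tested. The averages over 4 backgrounds were -0.10 ± 0.043 for XPL1, -0.24 ± 0.034 for NMT2 and -0.10 ± 0.041 for NMT3.

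Other genes of phosphatidylcholine and its methyl supply were followed as 4 lists of 57 genes in all, 56 of them tested (NPC5, a phospholipase C gene, had too few counts). Of the phospholipid breakdown and phosphocholine phosphatase genes, 13 of 17 fell with nup136 on average over backgrounds and 0 rose, with a median log2 fold change of -0.34, against 0.00498 over all genes, 26.9% of which fell and 25.7% rose. DESeq2 called 12 lower and 0 higher, and at an unadjusted p under 0.05 the numbers were 13 and 0. Folds of list genes are averages over backgrounds on the log2 scale, so they differ from the ratio of mean CPM. PECP1, a phosphatase of phosphoethanolamine and phosphocholine, fell 2.83-fold (3.35 CPM with nup136 against 10.0 CPM without, -1.50 ± 0.32, adjusted p = 0.00363). GDPD3 and GDPD1, glycerophosphodiester phosphodiesterases, fell 2.39-fold (-1.26 ± 0.35, adjusted p = 0.00417) and 1.92-fold (-0.94 ± 0.096, adjusted p = 1.27e-07). GDPD3 was barely detected, at 0.458 CPM with nup136 against 1.15 CPM without. It had 0.230 and 0.738 CPM in nup136, against 0.814 and 0.346 CPM in WT. PLDZETA2, a phospholipase D of phosphate starvation, fell 1.80-fold (-0.85 ± 0.12, adjusted p = 1.96e-06). PECP1 had 2.12 and 3.08 CPM in nup136, 20.1 and 13.1 CPM in the libraries labelled nup82 and 10.2 and 10.9 CPM in nup50c, against 3.84 and 6.78 CPM in WT. With the libraries labelled nup82 nup136 and nup50c nup82 nup136 omitted, 5 of 17 fell and 0 rose, with a median of -0.27, where 34% of all genes passed.

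Galactolipid and sulfolipid genes, whose products can replace phospholipids in membranes, fell with nup136 in 5 of 7 cases and rose in 0, with a median of -0.21, beside 26.9% lower and 25.7% higher over all genes. DESeq2 gave the same numbers, as did an unadjusted p under 0.05. With the same 4 libraries omitted, edgeR called 4 of 7 lower and 0 higher, with a median of -0.32, where 34% of all genes passed. MGD3 and MGD2, monogalactosyldiacylglycerol synthases of phosphate starvation, fell 4.01-fold (-2.0 ± 0.15, adjusted p = 5.67e-09) and 2.01-fold (-1.01 ± 0.086, adjusted p = 3.52e-10). SQD2, which makes sulfolipid, fell 1.41-fold (-0.49 ± 0.042, adjusted p = 3.83e-10), and MGD1, the main synthase of plastids, 1.16-fold (-0.21 ± 0.038, adjusted p = 4.55e-05). By mean, MGD1 had 106 CPM in nup136 and 73.6 CPM in the libraries labelled nup50c nup82 nup136, against 104 CPM in WT. MGD3 had 3.57 and 2.93 CPM in nup136, 17.1 and 14.2 CPM in the libraries labelled nup82 and 15.2 and 17.0 CPM in nup50c, against 7.03 and 6.43 CPM in WT. It was lowest in the libraries labelled nup50c nup82 nup136, at 1.34 and 1.93 CPM.

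In the methyl cycle, which supplies S-adenosylmethionine, 3 of 14 genes rose and 6 fell with nup136, around a median of -0.03, against 25.7% higher and 26.9% lower over all genes. HMT3, a homocysteine methyltransferase, fell 4.67-fold (5.32 CPM with nup136 against 16.2 CPM without, -2.22 ± 0.089, adjusted p = 1.68e-16). MS2, a methionine synthase, fell 1.47-fold (-0.56 ± 0.037, adjusted p = 2.73e-12) and SAHH2, which removes S-adenosylhomocysteine, 1.20-fold (-0.26 ± 0.035, adjusted p = 8.64e-07). MTO3, an S-adenosylmethionine synthetase, rose 1.44-fold (0.53 ± 0.039, adjusted p = 2.84e-11). HMT3 had 14.2 and 12.4 CPM in nup136, against 12.6 and 9.84 CPM in WT, and was far lower where nup136 met another label, with 0.817 and 0.688 CPM in the libraries labelled nup50c nup82 nup136, 2.79 and 3.69 CPM in those labelled nup82 nup136 and 3.66 and 4.29 CPM in nup50c nup136. MTO3 was highest in the libraries labelled nup50c nup82 nup136, at 742 and 783 CPM, against 438 and 406 CPM in WT. In nup136 itself MTO3 had 426 and 444 CPM.

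Of 18 other genes of phosphatidylcholine synthesis, 2 rose and 5 fell with nup136, around a median of -0.06, shares near or below the 25.7% and 26.9% of all genes. ROD1, a phosphatidylcholine diacylglycerol cholinephosphotransferase, fell 1.31-fold (-0.39 ± 0.064, adjusted p = 1.07e-05) and CEK1, a choline kinase, 1.23-fold (-0.30 ± 0.059, adjusted p = 0.000151). PSD3, a phosphatidylserine decarboxylase, fell 1.16-fold (-0.22 ± 0.038, adjusted p = 2.93e-05) and LPCAT2, a lysophosphatidylcholine acyltransferase, 1.15-fold (-0.20 ± 0.055, adjusted p = 0.00394). Of the members, NMT3 averaged -0.77 with nup136, NMT2 -0.40 and XPL1, as a description, -0.13. The averages of NMT3 and XPL1 combine opposite signs. With the libraries labelled nup82 nup136 and nup50c nup82 nup136 omitted, NMT3 averaged 0.098. In nup136 itself the mean of ROD1 was 23.4 CPM, against 22.8 CPM in WT, and that of CEK1 29.3 CPM, against 27.9 CPM. Where nup136 met another label, the means were 14.3 to 16.5 CPM for ROD1 and 18.0 to 22.1 CPM for CEK1. PSD3 (77.5 against 83.2 CPM) and LPCAT2 (18.3 against 21.3 CPM) were below WT in nup136 by mean.

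**Figure D4:**
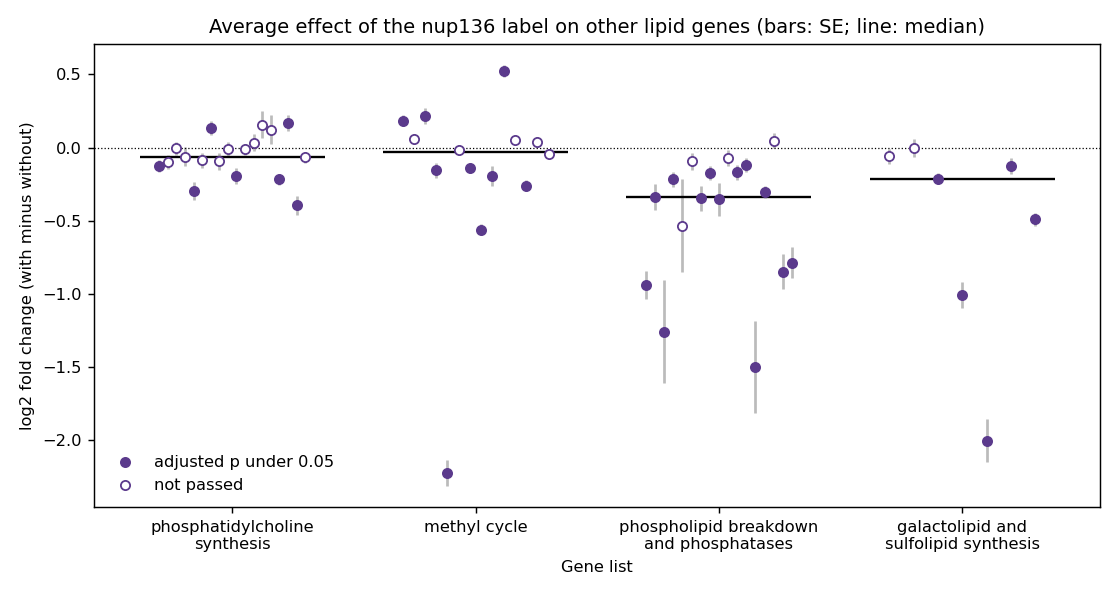
Average log2 fold change with the nup136 label over 4 backgrounds (vertical axis) of each tested gene of the 4 lists (horizontal axis); filled points passed an adjusted p of 0.05, open points did not, grey bars are SE and black lines list medians. In the breakdown list 13 of 17 genes are filled and below 0, with a median of -0.34, and the lowest point of all is HMT3 at -2.22.

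The other labels moved fewer list genes. With the nup82 label, 1 of 18 genes of phosphatidylcholine synthesis rose (PSS1, a phosphatidylserine synthase, 0.18 ± 0.053, adjusted p = 0.0201) and 1 fell (PSD2, -0.33 ± 0.099, adjusted p = 0.0252), where 15.1% of all genes passed, 6.56% higher and 8.57% lower. Of the methyl cycle genes 1 rose and 3 fell, with HMT3 at -1.0 ± 0.090 (adjusted p = 1.29e-08), MTO3 at 0.22 ± 0.039 (adjusted p = 0.000334), SAHH2 at -0.18 ± 0.035 (adjusted p = 0.000594) and MS2 at -0.12 ± 0.037 (adjusted p = 0.0286). SQD1, which makes the sulfolipid head group, rose (0.23 ± 0.051, adjusted p = 0.00328) and 0 of 7 galactolipid and sulfolipid genes fell, also by DESeq2 and at an unadjusted p under 0.05. Of the breakdown genes 0 of 17 passed in either direction, against 1 by DESeq2 and 3, all lower, at an unadjusted p under 0.05. With the nup50c label, CEK3, a choline kinase, rose (0.19 ± 0.048, adjusted p = 0.00786) and 3 synthesis genes fell: PSD2 (-0.37 ± 0.099, adjusted p = 0.0102), CEK1 (-0.24 ± 0.059, adjusted p = 0.0052) and ROD1 (-0.19 ± 0.063, adjusted p = 0.0339). Of all genes, 8.61% rose and 8.8% fell with that label. MTO3 rose (0.16 ± 0.039, adjusted p = 0.00649) and HMT3 fell (-0.88 ± 0.090, adjusted p = 1.1e-07). NPC3, a phospholipase C, rose (0.14 ± 0.049, adjusted p = 0.0477). DGD1, a digalactosyldiacylglycerol synthase, rose (0.19 ± 0.053, adjusted p = 0.0117) and MGD1 fell (-0.17 ± 0.038, adjusted p = 0.00229). These are averages over backgrounds, and some genes went the other way on the WT background. By mean, HMT3 had 19.1 CPM in nup50c and 19.7 CPM in the libraries labelled nup82, against 11.2 CPM in WT. MTO3 had 334 and 385 CPM in that order, against 422 CPM. PSD2 had 7.41 CPM in nup50c, against 5.72 CPM in WT. In nup50c nup136 the 3 means followed the averages, at 3.97, 548 and 7.05 CPM, against 13.3, 435 and 11.6 CPM in nup136. With the same 4 libraries omitted, edgeR called 0 list genes with the nup82 label and 2 with the nup50c label, both lower, 1 of synthesis and 1 of the methyl cycle, where 0.925% and 2.83% of all genes passed.

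Next to XPL1 and NMT2 on the chromosomes, the 5 protein-coding genes on each side were read for the average effect of the nup82 label. Of 9 tested neighbours of XPL1, AT3G17940 passed (0.12, adjusted p = 0.0495), and the log2 fold changes ran from -0.0697 to 0.12. Of 10 neighbours of NMT2 0 passed, also by DESeq2, with 1 at an unadjusted p under 0.05. The share over all genes was 15.1%.

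The genes whose pattern was most like each member were found by Pearson r of log2 CPM over the 16 libraries, among 19110 protein-coding genes. These are descriptions, and the libraries share genotypes and depth. For XPL1 the closest were XTH4, a xyloglucan endotransglucosylase (r = 0.872), Tic20-V of the plastid import machinery (r = 0.85), AT4G12060, annotated as the Clp protease subunit CLPT2 (r = 0.843), ABCI1, an ABC transporter (r = 0.827), and RBCS1B, a small subunit of Rubisco (r = 0.813). XTH4 had a mean of 227 CPM in nup136 and 331 CPM in the libraries labelled nup50c nup82 nup136, against 383 CPM in WT. For NMT2 they were AT5G07030, annotated as similar to an aspartyl protease (r = 0.981), PPC3, a phosphoenolpyruvate carboxylase (r = 0.98), and CAB2, a chlorophyll-binding protein (r = 0.978). PPC3 had a mean of 61.9 CPM in the libraries labelled nup50c nup82 nup136, against 165 CPM in WT. For NMT3 they were JAZ7, a repressor of jasmonate signalling (r = 0.912), NDL2 (r = 0.907) and AT1G34060, annotated as the aminotransferase-related TAR4 (r = 0.907). JAZ7 had a mean of 0.727 CPM in the libraries labelled nup50c nup82 nup136 and 9.57 CPM in nup136, against 2.21 CPM in WT. RBCS1B and CAB2 have near-identical copies in the genome, so their counts are uncertain.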

How the data were processed

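Strand-specific mRNA libraries of whole seedlings, 16 in all, were grouped by genotype as labelled. Per the submitters' processing notes, HISAT2 2.0.4, HTSeq 0.6.1p1 and the build TAIR10 were used. The deposited counts are raw whole numbers per gene. FPKM values were also deposited. Dividing the counts by gene length gives them up to a scaling per library that lies within 0.665% of TMM, and they served only for levels per length.

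All 16 libraries entered 1 quasi-likelihood fit with robust estimation (edgeR 4.0.16, R 4.3.3) with TMM scaling, filterByExpr at a minimum count of 10 and 1 coefficient per genotype, leaving 8 residual degrees of freedom. The Benjamini-Hochberg adjustment ran over 22427 genes at a threshold of 0.05, and the SE is the log2 fold change over the square root of F. The steps were tested on simulated data. Common biological variation was 0.102 (coefficient), and replicates of a genotype differed by more than sampling noise (chi-square per degree of freedom 5.08 to 17.5).

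The members and the lists were chosen with earlier results of these data known. The comparisons of each double or triple genotype with nup50c, nup136, nup50c nup82 or nup82 nup136, and the interactions within 1 level of nup82, were added after values were seen. Named were up to 4 genes per list and label with the largest change among those past the threshold, neighbours of XPL1 and NMT2 past it (those of NMT3 are not reported here), and the 5 (XPL1) or 3 (NMT2, NMT3) genes of highest r with a mean of at least 1 CPM. Values by genotype for PECP1, MGD3, MGD1, HMT3, MTO3, PSD2, XTH4, PPC3 and JAZ7 were picked after they were seen. Alternatives were DESeq2 1.42.0 size factors and Wald test, library totals, no filter, a replicate block, 2-genotype fits, each library left out, Spearman's rho and CPM per exon length. Omitting 4 libraries was added after the data were seen. Gene positions agreed for 32532 of 32548 matched identifiers between the files and RefSeq TAIR10.1.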

Additional observations from a re-analysis of the deposited data

Results flagged for a closer look

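What drew attention was that 1 label went with opposite changes of XPL1 and of NMT3 on different backgrounds, every library of 1 genotype lying beyond every library of the other. Values are log2 fold changes from the fit of all libraries. For XPL1, the nup136 label added to nup50c nup82, nup82 and nup50c gave 0.50, 0.39 and 0.26, against -1.68 when added to WT. The nup50c label added to nup136 gave 0.88, against -1.05 when added to WT. The nup82 label added to nup136 gave 0.89, against -1.17 when added to WT, and added to nup50c it gave -0.18, the same direction as on WT.

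For NMT3, the nup136 label added to nup50c nup82, nup82 and nup50c gave -1.66, -1.59 and -1.14, against 1.31 when added to WT. The nup50c label added to nup82 nup136, nup82 and nup136 gave -0.64, -0.58 and -0.72, against 1.73 when added to WT. The nup82 label added to nup50c nup136, nup136 and nup50c gave -0.91, -0.99 and -0.40, against 1.91 when added to WT.

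The difference of the nup136 effect with and without nup50c, averaged over the nup82 label, was tested in the edgeR fit and passed for NMT2 (-0.48) and NMT3 (-1.26). For XPL1 it was 1.03, as a description. The differences that involve the nup82 label, as an effect or as a background against WT, were not tested, because that label chose the members.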

How the results depend on the processing

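The 45 values fitted for tested comparisons of the 3 members include those of XPL1 given above with no p. Nothing is read from the side of the threshold of these XPL1 values. Under DESeq2 size factors, the DESeq2 Wald test, no filter and the replicate block, all 45 kept their direction and side of the threshold. With library totals as the only scaling 44 did, and NMT2 in nup136 against WT turned to 0.0232 and still did not pass. All 30 values of 2 genotypes also kept theirs in fits of only those genotypes. With 1 library left out, 710 of the values were the same, and the range was -0.16 to -0.10 for the nup136 average of XPL1. It was -0.17 to 0.0373 for XPL1 and -0.024 to 0.0204 for NMT2 in nup50c nup82 against nup82, -0.0136 to 0.12 for XPL1 in nup50c nup82 nup136 against nup82 nup136, and -0.16 to 0.0423 for the NMT3 interaction within the nup82 label.

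Of list counts, the breakdown list with nup82 had 1 call with DESeq2 size factors, the Wald test or the replicate block, 3 with no filter and 0 to 1 with a library left out. With nup50c it had 0 with DESeq2 size factors or library totals, 2 with no filter and 0 to 2 with a library left out. The other ranges with a library left out were 0 to 2 (synthesis, nup82), 1 to 3 (galactolipid and sulfolipid, nup50c) and 1 to 2 (the same list, nup82). The replicate numbers did not pair the libraries: same-numbered libraries of 28 pairs of genotypes deviated with correlations of -0.0574 to 0.0468, and 0 were over 0.1. Under the replicate block no member changed its call, and genes called in nup50c against WT numbered 424, against 389 without it.

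With the 4 libraries labelled nup82 nup136 and nup50c nup82 nup136 omitted, fewer backgrounds enter each average. NMT3 then turned to 0.098 (nup136), 0.14 (nup50c) and, described only, 0.76 (nup82), and the nup82 values were -0.68 for XPL1 and -0.0406 for NMT2. List counts were 5 for breakdown with nup136, 1 each for synthesis and methyl cycle with nup50c, and 0 for breakdown and galactolipid with nup50c and for synthesis, methyl cycle and galactolipid with nup82. Over all genes the calls numbered 7525 against 11803 with all libraries (nup136 average), 626 against 3904 (nup50c average), 205 against 3393 (nup82 average) and 1199 against 3902 (averaged interaction).

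With 1 library left out, calls ranged from 95 to 463 (nup50c against WT), 136 to 1075 (nup50c nup82 against nup82), 1806 to 3590 (nup136 against WT), 3386 to 5952 (nup50c nup136 against WT), 1131 to 2285 (the same against nup136), 3567 to 6478 (the same against nup50c), 2945 to 5088 (nup82 nup136 against nup82) and 728 to 1337 (nup136 effect in nup50c minus WT). Without the filter, calls numbered 855 against 389 (nup50c against WT), 1606 against 762 (nup50c nup82 against nup82) and 1769 against 1159 (nup136 effect in nup50c minus WT). For nup50c nup82 against nup82, DESeq2 called 1226 and the 2-genotype fit 1489. By Spearman's rho the likeness of CAB2 to NMT2 was 0.594, and of the others 0.729 to 0.926. With 2 libraries per genotype, differences near the SE of about 0.08 log2 units cannot be seen, and depth is not the limit for the members.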
